A study of Mus musculus with 2 samples.

Results

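The Z-disc genes described here are 10 genes of alpha-actinins, myozenins, myotilin and LIM proteins: Actn1, Actn2, Actn3, Actn4, Myoz1, Myoz2, Myoz3, Myot, Ldb3 and Pdlim3. They were chosen by name, as every probe set that the array's annotation pairs with exactly 1 of these genes, which gave 10 probe sets, 1 for each gene, of 19938 named genes on the array. Bulk RNA of fetal mouse ear at E18.5 was measured on 2 Affymetrix arrays. 1 array held wild-type BALB/c ear and the other held BALB/c ear null for both Myf5 and Myod1, which encode the basic helix-loop-helix factors that set cells on the path to skeletal muscle. The labels do not give the targeted alleles, the part of the ear taken, or the number of fetuses behind each RNA. With 1 array per genotype no difference below has a replicate check, no test across samples is possible and no p-value is given.

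The Z-disc is the boundary of the sarcomere, the contractile unit of striated muscle, where actin filaments of neighbouring sarcomeres are anchored. Alpha-actinins are rod-shaped dimers that cross-link these filaments, and myozenins, myotilin and PDZ-LIM proteins bind alpha-actinin there. Actn2 and Actn3 are the alpha-actinins of muscle, whereas Actn1 and Actn4 are made by most cells and sit at focal adhesions, cell junctions and stress fibres.

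The muscle genes of the group were lower in the double knockout (the mutant ear) and the non-muscle alpha-actinins read almost alike on both arrays. Of 8 muscle genes, 7 were lower by 2-fold or more in the mutant ear, 0 were higher by as much and 1, Myoz3, lay within 2-fold. Neither Actn1 nor Actn4 passed 2-fold in either direction. Over all 12458 genes tested, 1.71% were lower by 2-fold or more and 0.482% were higher by as much. The median log2 difference, double knockout minus wild type, was -4.28 over the 8 muscle genes and -0.02 over the 2 non-muscle genes, against -0.01 over all genes tested. The same 8 genes had a median of -5.04 on the values as deposited, without a floor. In whole-tissue RNA, fewer cells of a type and less RNA per cell cannot be told apart.

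The floor is the median of all probe sets on an array, a log2 signal of 5.65 in wild-type ear and 5.70 in mutant ear. A value below it was raised to it, so that a fold against a raised value is a lower bound and is written "at least". All 10 genes lay above the floor in wild-type ear. In mutant ear 5 were above it and 5 (Actn2, Ldb3, Myoz1, Myoz2 and Myot) were below it. For scale, the standard deviation of the log2 difference was 0.344 among the 11626 genes measured on both arrays. Between probe sets of 1 gene it was 0.168, taken from 619 genes; this is noise of probes and says nothing of the variation among fetuses.

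**Figure D1:**
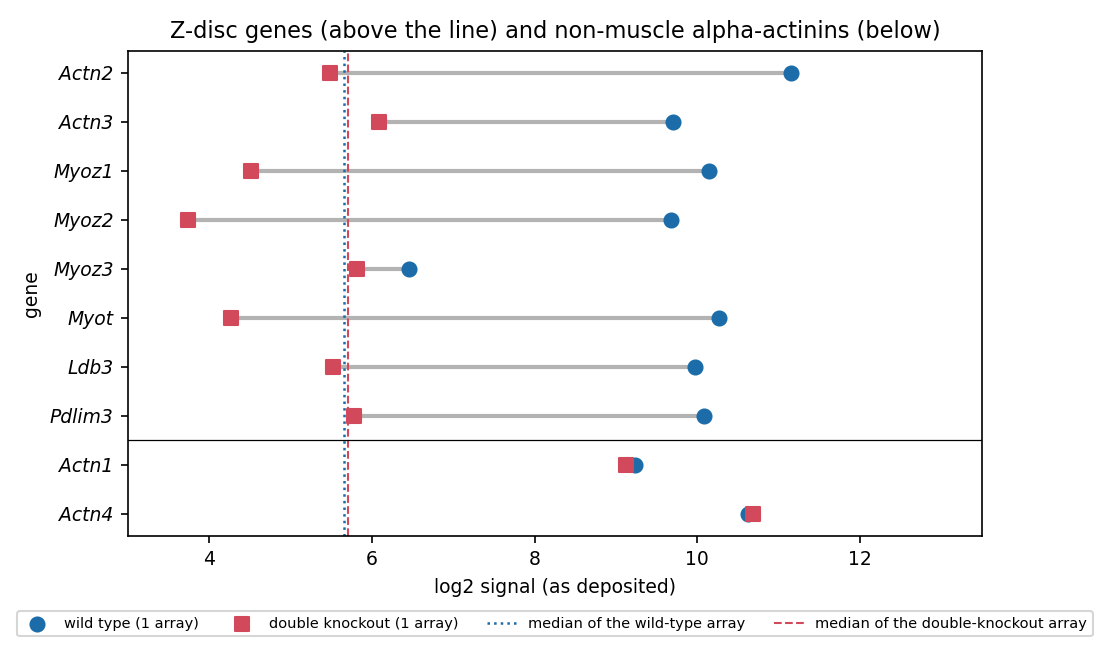
Log2 signal (x axis) of the 10 genes (y axis) on the wild-type array (circles) and the double-knockout array (squares), with 1 array per genotype; the vertical lines mark each array's median, used as the floor. The wild-type signals of the muscle genes lie between 6.45 and 11.15 and their double-knockout signals between 3.74 and 6.09, while Actn1 and Actn4 hardly move.

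The targeted genes and markers of the tissue were read beside the labels, from lists chosen with earlier results of these data known. Myod1 read 6.95 in wild-type ear and 6.38 in mutant ear, and Myf5 read 5.94 and 5.25; the sources used here do not say whether their probes lie in the deleted parts, so the genotype is not checked by them. Of their relatives, Myf6 read 8.04 and 4.27 and Myog 7.03 and 4.52. All 14 skeletal muscle markers were lower by 2-fold or more, with a median of -5.16, and 9 of them are bounds set by the floor. Some ear markers were well above the floor on both arrays: Oc90, a protein of the otoconia, read 11.28 and 11.26, Tecta 8.74 and 8.76, and Coch 8.63 and 8.95. All 8 inner ear markers above the floor on at least 1 array were within 2-fold, and 1 further marker lay below it on both. Otol1, Myo7a, Otx1 and Pax2, named after their values were seen, were too dim in wild-type ear for a loss above 1.26-fold to be recorded. The tissue on the arrays also differed in other ways. Salivary gland markers (8 of 9 at least 2-fold higher, 1 below the floor on both arrays) had a summed log2 signal of 8.50 in wild-type ear and 13.44 in mutant ear, adipocyte markers (3 of 9 above the floor at least 2-fold higher) 12.24 and 13.05, and brain markers (4 of 8 at least 2-fold higher) 10.57 and 11.15. The part of these tissues in the differences of the Z-disc genes was not tested.

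Among the alpha-actinins, the muscle genes and the non-muscle genes parted. Actn2 (probe set 10407742), the alpha-actinin of all striated muscle fibres including heart, read 11.15 in wild-type ear and 5.48 in mutant ear. The second value lies below the floor, so Actn2 was at least 43.8-fold lower and kept at most 2.28% of its wild-type signal. Actn3 (probe set 10464836), the alpha-actinin of fast fibres, read 9.70 and 6.09. Both values lie above the floor, and Actn3 was 12.2-fold lower, with 8.21% of the wild-type signal left. Its signal in mutant ear was 0.39 above the floor on the log2 scale. Actn1 (probe set 10401244), the widely made form at focal adhesions and stress fibres, read 9.23 and 9.12, a log2 difference of -0.12. Actn4 (probe set 10561527), the other widely made form, read 10.62 and 10.69, a log2 difference of 0.07. Both differences are smaller than the standard deviation between probe sets of 1 gene. The gap between paralogs, the log2 difference of the muscle gene minus that of the non-muscle gene, was -5.34 or lower for Actn2 against Actn1 and -5.52 or lower against Actn4. For Actn3 the gaps were -3.49 and -3.68.

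Promoter sequences of these genes are shown because Myf5 and Myod1 bind E-boxes, the motif CANNTG, and because the muscle and non-muscle paralogs differ in the comparison. The sequences come from RefSeq on GRCm38.p6, in windows from 250 bases before to 50 bases after an annotated start. Of the 10 genes, 6 had an entry (Actn1, Actn2, Actn4, Ldb3, Myoz2 and Pdlim3), with 7 windows in all since Ldb3 has 2 starts. The part of the window upstream of the annotated gene is printed, 5′ to 3′ on the gene's strand, with E-boxes in capitals. The Actn2 stretch is chr13:12340733-12340982 on the minus strand, the Actn1 stretch chr12:80260421-80260613 on the minus strand and the Actn4 stretch chr7:28962352-28962582 on the minus strand.
Actn2: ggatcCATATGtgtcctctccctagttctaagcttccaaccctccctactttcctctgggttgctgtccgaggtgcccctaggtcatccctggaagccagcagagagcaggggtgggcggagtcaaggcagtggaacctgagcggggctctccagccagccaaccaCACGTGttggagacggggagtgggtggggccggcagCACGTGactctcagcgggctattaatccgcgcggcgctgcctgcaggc
Actn1: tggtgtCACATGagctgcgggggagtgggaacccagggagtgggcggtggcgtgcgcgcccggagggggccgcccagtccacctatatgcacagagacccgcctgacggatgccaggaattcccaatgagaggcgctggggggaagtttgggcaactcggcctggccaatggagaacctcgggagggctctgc
Actn4: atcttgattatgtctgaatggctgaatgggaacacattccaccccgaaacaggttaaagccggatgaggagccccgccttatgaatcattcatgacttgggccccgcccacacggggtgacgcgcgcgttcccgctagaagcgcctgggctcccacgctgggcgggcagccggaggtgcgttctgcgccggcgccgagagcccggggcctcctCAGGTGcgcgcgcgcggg

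The Actn2 window held 3 E-boxes, of which 2 were spelled CACGTG and began at -84 and -48 from the start site. The Actn1 window held 1, at -244, and the Actn4 window held 2, a CAGGTG at -37 and another within the transcribed bases that are not printed. The Actn2 and Actn1 windows held no CAGCTG and, on either strand, no CAGGTG. Counting both strands, which read CANNTG alike, 5 of the 6 genes had at least 1 E-box and Ldb3 had none. Of 32851 RefSeq windows of the same length, 72.3% held an E-box, so most genes share it. CACGTG, chosen for counting after the Actn2 sequence was seen, stood in 7.15% of all windows. GC content was 64.7% for Actn2, 68.3% for Actn1 and 68.0% for Actn4. A match is a run of letters and not a measured binding site. Binding of Myf5 or Myod1 was not tested, so the E-box counts do not rank the muscle genes above the non-muscle genes.

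Of the myozenins, 2 were far lower in the double knockout and 1 was not. Myozenins, also called calsarcins, bind alpha-actinin and the phosphatase calcineurin at the Z-disc. Myoz1 (probe set 10417933), which is made mainly in fast fibres, read 10.14 in wild-type ear and 4.51 in mutant ear, below the floor and thus at least 21.6-fold lower. Myoz2 (probe set 10501895), the form of heart and slow fibres, read 9.68 and 3.74, at least 15.8-fold lower. Its double-knockout signal was 1.96 below the floor on the log2 scale, and on the deposited values, with no floor, the ratio was 61.2-fold. Myoz3 (probe set 10459075), another form of fast skeletal muscle, read 6.45 and 5.82. Both values lie above the floor. Myoz3 was 1.56-fold lower, a log2 difference of -0.64, and did not reach 2-fold. Its wild-type signal was only 0.81 above its array's floor, so a fold above 1.69 would have been written as a bound at that value.

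Heart muscle also makes Myoz2, so its markers were read beside it. Of 8 heart markers, 7 lay below the floor on both arrays: Myh6, Nppa, Nppb, Tnni3, Myl7, Tbx5 and Gata4. Nkx2-5 was the exception, which read 5.70 in wild-type ear, barely over the floor, and 6.25 in mutant ear. The part of heart muscle in the signal and the difference of Myoz2 was not tested.

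The printed part of the Myoz2 window is chr3:123035004-123035237 on the minus strand of GRCm38.p6, with 1 of its 2 E-boxes in the printed part and in capitals.
Myoz2: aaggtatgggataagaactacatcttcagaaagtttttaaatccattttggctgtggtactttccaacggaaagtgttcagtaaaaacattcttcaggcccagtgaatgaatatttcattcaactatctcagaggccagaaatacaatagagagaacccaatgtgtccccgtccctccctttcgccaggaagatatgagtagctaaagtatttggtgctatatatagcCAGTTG
The E-box that is not printed is a CAGCTG at -12, a spelling found in 16.3% of all windows. The window also held a match to the MEF2 consensus, beginning at -33 and searched in this wide form after the sequence was seen. The consensus is the motif of the Mef2 factors that act with the myogenic factors. The match is an alternating run of T and A, and binding of Mef2 factors to it was not tested. That consensus stood in 3.19% of all windows and in 1 of the 6 genes with an entry. A stricter count, on 4 spellings of it that include both strands, found 0 among the 7 windows of these genes and 0.274% of all windows. GC content of the Myoz2 window was 42.7%, below those of the alpha-actinins.

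Myotilin and both PDZ-LIM proteins of the group were far lower in the mutant ear too. Myot (probe set 10455461), the immunoglobulin-domain protein that bundles actin with alpha-actinin, read 10.27 in wild-type ear and 4.26 in mutant ear, at least 23.7-fold lower. Ldb3 (probe set 10418950), also called ZASP or Cypher, which joins a PDZ domain that binds alpha-actinin to LIM domains, read 9.97 and 5.52, at least 19.3-fold lower. Pdlim3 (probe set 10571601), the actinin-associated LIM protein, read 10.08 and 5.78. The second value is 0.08 above the floor, and Pdlim3 was 19.6-fold lower with 5.09% of its wild-type signal left. The log2 differences of these 3 genes lay between -4.57 and -4.27, and for Myot and Ldb3 the floor sets the value. Without a floor the 3 differences were -6.00 for Myot, -4.45 for Ldb3 and -4.30 for Pdlim3.

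The printed part of the Pdlim3 window is chr8:45885237-45885486 on the plus strand of GRCm38.p6, with both of its E-boxes in capitals.
Pdlim3: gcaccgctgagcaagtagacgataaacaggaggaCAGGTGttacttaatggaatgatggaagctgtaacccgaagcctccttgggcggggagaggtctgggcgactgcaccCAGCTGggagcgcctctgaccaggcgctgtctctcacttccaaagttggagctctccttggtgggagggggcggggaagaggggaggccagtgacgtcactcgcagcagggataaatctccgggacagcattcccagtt
They are a CAGGTG at -216 and a CAGCTG at -139. CAGGTG or its reverse, CACCTG, stood in 20.2% of all windows. Both Ldb3 windows lie inside the annotated gene and are not printed. They held no E-box but a CArG box, the motif of serum response factor, which was searched after the sequence was seen and stood in 1.63% of all windows.

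**Figure D2:**
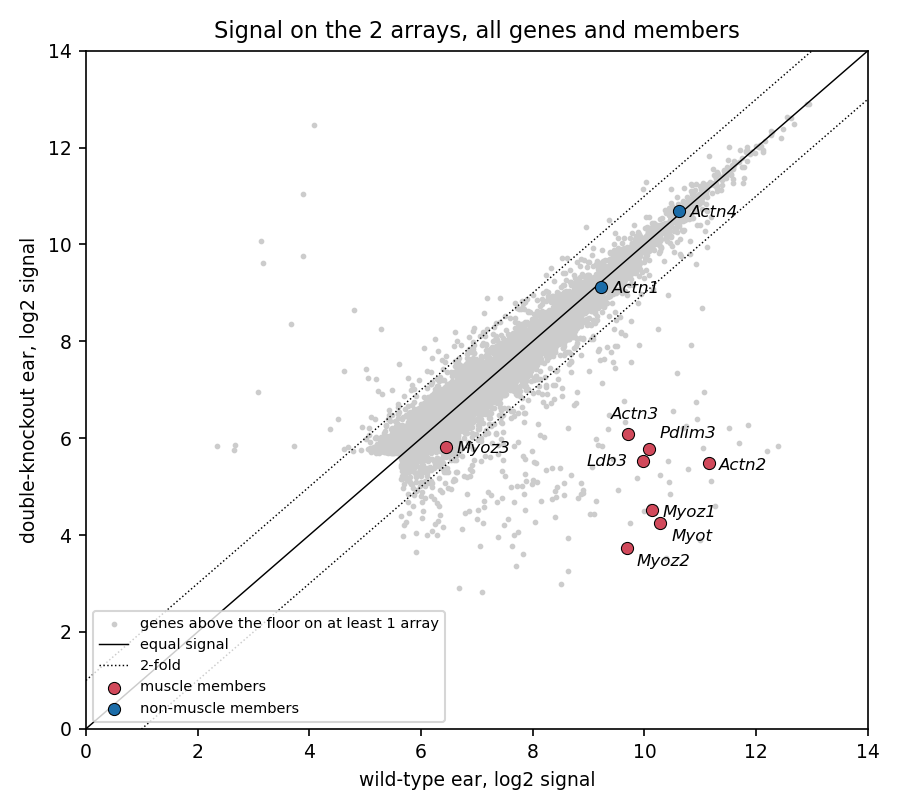
Log2 signal in the wild-type ear (x axis) against the double-knockout ear (y axis) for all 12458 genes tested (grey), the 8 muscle genes (red) and the 2 non-muscle alpha-actinins (blue); lines mark equal signal and 2-fold. Actn1 and Actn4 lie on the line of equal signal, Myoz3 lies just inside the 2-fold line and the other 7 lie far below it.

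The other PDZ-LIM genes were lower by less, or close to 0. The family has 5 further genes, each measured on both arrays. The median was -0.48, with 2 of them lower by 2-fold or more, 3 within 2-fold and 0 higher. Of these 3, Pdlim2 and Pdlim4 were dim in wild-type ear, at 6.41 and 6.59. No loss above 1.64-fold for Pdlim2 and 1.85-fold for Pdlim4 could be recorded over the floor. Pdlim5, also called ENH, which striated muscle and other tissues make, read 9.40 in wild-type ear and 7.79 in mutant ear, 3.05-fold lower. Pdlim1, also called CLP36, a partner of alpha-actinin on stress fibres, read 9.59 and 8.20, 2.61-fold lower. Pdlim7, also called Enigma, read 8.46 and 7.98, a difference of -0.48, Pdlim4 differed by -0.32 and Pdlim2 by 0.04. The gap of Pdlim3, its log2 difference minus that of the paralog, ran over the 5 paralogs from -4.34 against Pdlim2 to -2.68 against Pdlim5. For Ldb3 the gaps were bounds, from -4.32 or lower against Pdlim2 to -2.66 or lower against Pdlim5. No test of these gaps is possible with 1 array per genotype.

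In the family of myotilin, the muscle gene was lower and the other was lower by less, within 2-fold. Mypn, which encodes myopalladin of the sarcomere, read 7.73 in wild-type ear and 4.06 in mutant ear, below the floor and lower by 4.09-fold or more. Palld, which encodes palladin of stress fibres, read 8.73 and 8.35, a difference of -0.38. The gap of Myot against Palld was -4.19 or lower.

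Smooth muscle also makes some of these proteins, Pdlim3 among them, and its markers were somewhat lower in the double knockout. Of the 8 smooth muscle markers above the floor, 7 were within 2-fold and Acta2 was past it. Their median was -0.42, with a summed log2 signal of 11.80 in wild-type ear and 11.11 in mutant ear. Some of the 7 were too dim in wild-type ear for a 2-fold loss to be recorded. Acta2, the smooth muscle actin, read 10.82 and 9.81, Myl9 9.77 and 9.18, and Smtn 8.49 and 8.41. Myocd, the coactivator that defines smooth muscle, lay below the floor on both arrays. The part of smooth muscle in the differences of Pdlim1, Pdlim5 and Pdlim3 was not tested.

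Most other genes of the Z-disc and its links were lower too. Of 26 such genes with a probe set, Dnajb6 lay below the floor on both arrays, which leaves 25. Their median was -1.79, with 15 lower by 2-fold or more, 10 within 2-fold and 0 higher. Of the 25, 14 are bounds set by the floor. Some of the 10 were too dim in wild-type ear for a 2-fold loss to be recorded. Without a floor, 17 genes of the list were lower by 2-fold or more. Neb, the nebulin gene, whose protein spans the thin filament from the Z-disc, read 10.44 in wild-type ear and 5.10 in mutant ear, at least 26.7-fold lower. Des, the desmin gene, which ties neighbouring Z-discs together, read 10.70 and 6.21, 22.4-fold lower. Cryab, a chaperone that binds desmin, read 10.16 and 9.08, 2.11-fold lower. The following genes of this list were chosen after their values were seen. Ttn, the titin gene, read 9.99 and 4.49, and Csrp3, the muscle LIM protein, read 8.41 and 4.80. Flnc, the filamin of muscle, read 9.91 and 7.92 and stayed well above the floor. Nebl and Sorbs2 differed by 0.19 and 0.23 and were the genes of the list above 0. Hspb8, a small heat shock protein, read 8.79 and 6.96, and Capzb, the capping protein subunit, differed by -0.18. Tcap, the titin cap, read 6.42 and 5.08 and, like Myoz3, was too near the floor in the wild type for a large fold to be recorded.

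**Figure D3:**
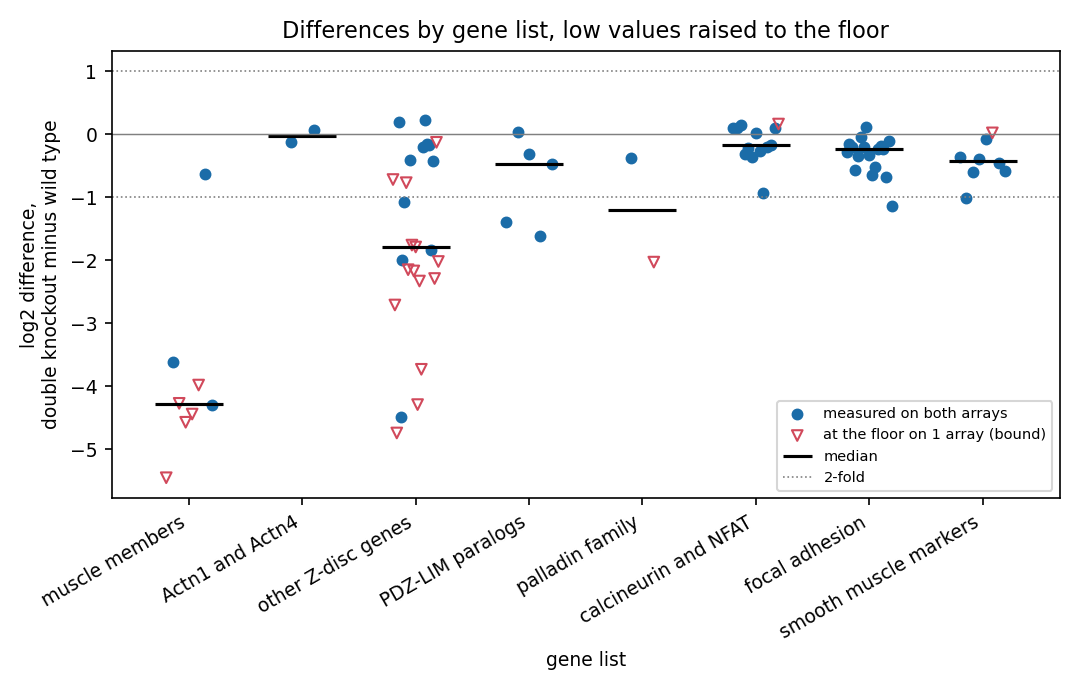
Log2 difference, double knockout minus wild type (y axis), of each gene tested, by gene list (x axis); filled circles are measured on both arrays, open triangles have 1 array at the floor and are bounds, and bars are medians. The muscle genes of the group have a median of -4.28, other Z-disc genes -1.79, and the calcineurin and focal adhesion lists -0.18 and -0.24.

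The signalling partners of the myozenins were closer to 0. All 13 genes of calcineurin, its regulators and the NFAT factors were within 2-fold, with a median of -0.18. Of the 13, 7 were below 0, close to the share over all genes tested. Of those 12458 genes, 6483 lay below Eef1a1, a housekeeping gene whose difference rounds to 0. Ppp3ca and Ppp3cb, which encode catalytic subunits of calcineurin, read 9.11 and 9.02 in the wild type and 9.20 and 9.11 in the double knockout. Nfatc3, a transcription factor that calcineurin activates, read 8.63 and 8.43. The lowest of the list was Nfatc2, named after its values were seen, with 6.85 and 5.92.

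The focal adhesion partners of the non-muscle alpha-actinins lay mostly a little below 0. Of 17 such genes, 16 were below 0 and 16 were within 2-fold, and the median was -0.24. Over all 12458 genes tested the median was -0.01, and 6483 lay below Eef1a1, whose difference rounds to 0. Itgb1, the integrin beta subunit that alpha-actinin binds, read 9.79 in wild-type ear and 9.47 in mutant ear. Parva, the actin-binding parvin, read 9.86 and 9.66. Csrp1, a LIM protein that binds alpha-actinin, differed by -0.68. Fhl3, a LIM protein that muscle makes at high levels, read 8.87 and 7.72, 2.21-fold lower, and was the gene of this list past 2-fold.

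Of the chromosomal neighbours of these genes, 1 was lower by 2-fold or more. For each gene the nearest named gene above the floor on either side was taken from RefSeq's gene order on GRCm38.p6, which gave 20 neighbours, and no such gene overlapped a member. Differences of the 20 ran from -2.15 to 0.52. Actn2, for example, lies between Mtr, at -0.37, and Heatr1, at -0.01, and Actn3 between Ctsf, at -0.33, and Zdhhc24, at 0.19. The 3 myozenins have neighbours that are themselves paralogs, with no protein-coding gene between: Synpo2l beside Myoz1, Synpo2 beside Myoz2 and Synpo beside Myoz3. Synpo2l, which encodes a Z-disc protein of striated muscle, was the neighbour past 2-fold, with 7.85 in wild-type ear and 5.27 in mutant ear, a bound of -2.15. Synpo2, the gene of myopodin, read 6.47 and 5.39, a bound of -0.77. Under this floor no fold above 1.71 could be recorded for Synpo2, and its difference on the deposited values was -1.08. Synpo, the gene of synaptopodin, read 6.67 and 6.43, a difference of -0.23.

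The genes with a difference nearest to that of Pdlim3, at -4.30, were sought among the genes measured on both arrays, a limit set after the values were seen. The 5 nearest were Tpm2, a tropomyosin, at -4.17, Eno3, the muscle enolase, at -4.12, Des at -4.48, Pygm, the muscle glycogen phosphorylase, at -4.49 and Myl4, a myosin light chain, at -4.55. Likeness here is the distance between differences over 2 arrays, which many genes of similar loss would share, and Pdlim3 itself lay only just above the floor in mutant ear. No such ranking is given for Actn2, whose signal in mutant ear was below the floor, where the order of values is unsettled. Differences given above without a floor carry the same limit.

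**Figure D4:**
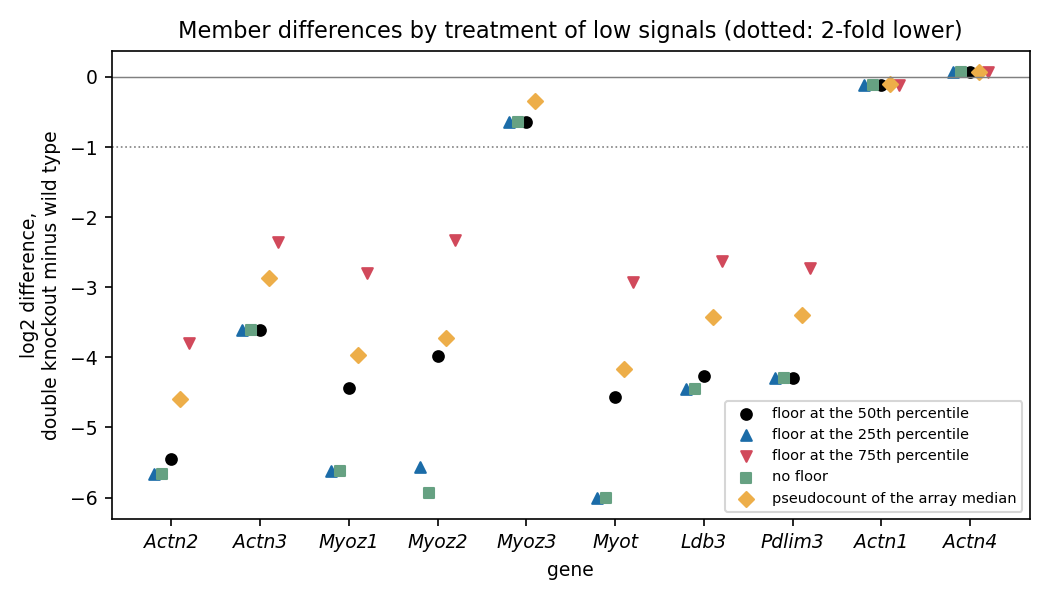
Log2 difference, double knockout minus wild type (y axis), of each gene (x axis) under 5 treatments of low signals; the dotted line marks 2-fold lower, and Myoz3 has no value under the highest floor, that at the 75th percentile. The 7 lower muscle genes stay below the line under each treatment shown, while the size of the difference follows the floor, for Myot from -2.92 to -6.00.

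The size of the differences depended on how low signals were treated, and their direction did not in any of the alternatives run. Raising the floor to the 75th percentile gave the muscle genes, now without Myoz3, a median of -2.73. A floor at the 25th percentile gave -5.01. Actn3 and Pdlim3 are above the main floor on both arrays, so a lower floor cannot change their differences.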

How the data were processed

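Per the labels' protocols, RNA of fetal ear came from a Trizol extraction, and 6 µg of it went into biotinylated cRNA. The authors deposited log2 values for 35557 probe sets, 1 per array. The base of the logarithm was read from their range, 0.75 to 13.27. The submitters' processing notes name MAS5; background correction, normalization and build are not stated there. MAS5 reads mismatch probes, which a whole-transcript gene array such as this lacks, so how the deposited values were made, and what signals near the floor mean, is unsettled. Values were used as deposited.

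In the platform annotation 21789 probe sets had 1 gene, 1621 had several and 12147 had none listed. Each gene took its probe set of highest mean linear signal. Low values were raised to each array's 50th percentile, and the 12458 genes that exceeded it on either array were counted at 2-fold, which is a description with no test. The calculation was run on simulated data, with changes planted only in genes well above the floor in wild-type ear. Dim genes such as Myoz3 and losses as large as that of Actn2 were not part of it. RefSeq tables gave names, gene order and promoters; protein sequences were not used here. Python 3.11.15, numpy 2.4.6, pandas 2.3.3 and statsmodels 0.14.6 were used.

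The members, gene lists and alternatives (4 scalings, 2 floors, no floor, a pseudocount, the median over probe sets, 2 thresholds) were chosen with earlier results of these data known. Named were all members, the 4 myogenic factors as far as used, and the 5 genes nearest to Pdlim3 in difference. The rule also asked for the 3 members of highest signal and the furthest past 2-fold in each list. These are not named for the skeletal muscle, salivary gland, adipocyte and brain lists, and for housekeeping genes only Eef1a1 is. Genes nearest to Actn2 and genes below the floor, also asked for, are not ranked because the order of such values is unsettled. Pdlim2, Pdlim4, Myocd, the heart markers below the floor and the chromosomal neighbours are named outside the rule. Others are said to be chosen after their values were seen. The number of arrays limits the precision.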

Additional observations from a re-analysis of the deposited data

How the results depend on the processing

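No replicate could be left out and no paired analysis was possible because each genotype has 1 array. A value counts as moved here where it shifted by more than the 0.168 between probe sets of a gene. Under equal medians, quantile normalization, loess and housekeeping scaling, the count of 7 lower muscle genes, the 0 non-muscle genes past 2-fold and the count of 15 other Z-disc genes held, and the median of all genes shifted by -0.01 to 0.06. The muscle median of -4.28 moved to -5.01 with the floor at the 25th percentile, -2.73 at the 75th, -5.04 with no floor and -3.58 with a pseudocount of each array's median. The gap between Actn2 and Actn1, -5.34, moved to -5.56, -3.69, -5.56 and -4.49 under the same 4 settings. With the floor at the 75th percentile 8 other Z-disc genes passed 2-fold instead of 15, since a higher floor caps the fold of dim genes, and Myoz3 gave no value. With the floor at the 25th percentile, or with no floor, 17 other Z-disc genes passed it. At 1.5-fold 8 muscle genes were lower, Myoz3 included, and at 3-fold 7. Shares over all genes are given here only at 2-fold with the main floor, so these counts have none beside them. Of all genes tested, 393 had a lower difference than Myoz3. For dim genes such as Myoz3 and Tcap the signal over background limits any fold.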
